A study of Mus musculus with 18 samples.

Results

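The difference between Ldha KO and WT macrophages in their response to interleukin 4 (IL-4) was measured for every gene as the change with IL-4 in KO cells minus the change with IL-4 in WT cells, called the interaction here. It used 12 of the 18 RNA-seq libraries of the study: 3 KO animals with IL-4, the same 3 KO animals untreated, 3 WT animals with IL-4 and the same 3 WT animals untreated. The KO mice are labelled as knockout for Ldha, the gene of the lactate dehydrogenase A subunit, and the WT mice as wild type. The labels used here give no allele, Cre driver, strain, age or sex for either genotype. Macrophages were grown from femur marrow with macrophage colony-stimulating factor at 30 ng/mL, in a medium holding 15% serum, over 7 days, and all 4 groups shared these conditions. Treated cells received recombinant mouse IL-4 for 24 h. Another 6 libraries, treated with interferon-gamma, entered the fit to estimate the spread between animals. Of 21380 gene identifiers, 14288 passed the filter on low values and were tested.

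IL-4 binds a receptor made of IL-4R alpha and, on macrophages, the common gamma chain or IL-13R alpha 1, and JAK kinases there phosphorylate the transcription factor STAT6. STAT6 then induces the genes that mark alternative activation, among them arginase 1, the mannose receptor and the chitinase-like protein Chil3, together with IRF4, EGR2 and the feedback inhibitor SOCS1. Lactate dehydrogenase A turns pyruvate into lactate while restoring NAD+, the step that lets glycolysis run fast, and the study asked how its loss bears on macrophage activation.

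The genotype labels were checked first with Ldha itself. Ldha had 4105, 4218 and 4226 normalized counts (read counts that the authors scaled by a size factor per library) in KO cells with IL-4, and 2128, 2261 and 2591 in untreated KO cells. WT cells had 22901, 23518 and 25145 with IL-4, and 12204, 11939 and 10712 untreated, so no KO library reached a WT library. KO was lower than WT by 2.51 on the log2 scale with IL-4 and by 2.32 untreated, and IL-4 raised Ldha in both genotypes, by 0.85 in KO and by 1.04 in WT. The genotype difference in that response was -0.19 ± 0.108 (log2, SE, n = 3 animals per group, limma adjusted p = 0.955). Lyz2, the gene of a macrophage lysozyme, stood at 426 to 873 normalized counts over the 6 KO libraries and at 350107 to 700319 over the 6 WT libraries, and it fell with IL-4 by 0.70 in KO and by 0.79 in WT (interaction 0.09, 95% interval -0.21 to 0.40). KO cells thus differed from WT cells in Lyz2 as well as in Ldha. Every comparison of the genotypes here holds both differences, and their separate parts cannot be told apart.

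The 12 libraries held 9.77 to 49.5 M recovered reads each, and the shallowest was WT animal 2 with IL-4. Mitochondrially encoded genes took 1.5 to 1.92% of reads with IL-4 and 1.95 to 2.17% untreated. All 15 macrophage markers listed were detected, with summed levels of 518400 to 613500 normalized counts in KO with IL-4, 537000 to 592900 in untreated KO, 690900 to 734600 in WT with IL-4 and 615200 to 633500 in untreated WT. That sum changed with IL-4 by -0.12 to 0.10 (log2) in the KO animals and by 0.16 to 0.23 in the WT animals, without overlap. Ctss led the sum, with 184800 to 215300 in KO with IL-4 against 122500 to 127800 untreated. In WT Ctss had 228700 to 267100 with IL-4 against 143600 to 160700 untreated. Adgre1, Fcgr1, Mertk, Cd14 and Sirpa, in contrast, were lower with IL-4 in every animal. With IL-4, 7 of the 15 markers were called lower in KO than in WT at a limma adjusted p under 0.05 (3.13% of all genes were). Untreated, 1 of the 15 was (0.525% of all genes), and 0 were called higher in KO in either condition. In bulk samples, fewer cells of a type and less RNA per cell cannot be told apart.

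Most of the IL-4 response was shared by the genotypes. IL-4 changed 4318 genes in KO (30.2% of those tested), with 2253 higher (15.8%) and 2065 lower (14.5%), and 4332 in WT (30.3%), with 2332 higher (16.3%) and 2000 lower (14%), at a limma adjusted p under 0.05. The genes called in both numbered 3204, which is 74.2% of the KO list and 74.0% of the WT list, and each of them moved in the same direction. The interaction was called for 1 gene (0.007% of those tested), the processed pseudogene Gm6192, which was higher, and for 0 genes in the lower direction (0%). At an unadjusted p under 0.05 the interaction passed in 774 genes (5.42%), where a threshold of 5% was set. That share moved with the fit. With the cultures of the same animal compared (the animal as a block), 1144 of the 14288 genes passed. Leaving out libraries gave 514 to 1094. Counts in the gene lists below stand beside the shares of all genes given here.

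The size of the response also ran in parallel. Across genes, which are not independent replicates, the KO and WT responses had a Pearson r of 0.844 over all 14288 genes. It was 0.949 over the 9978 genes whose 4 group means averaged at least 100 normalized counts. The SD of the response over genes was 0.68 in KO and 0.66 in WT. The median interaction was 0.00041, with quartiles of -0.14 and 0.15, and the median SE was 0.20. The 95% interval of the interaction lay within 1 log2 unit, a 2-fold difference, for 9790 genes (68.5%), and for 9334 (93.5%) of the 9978 better expressed ones. For the remaining genes the interval reached a 2-fold difference or more. Of the better expressed genes, 42 had an interaction of at least 1 log2 unit in size.

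**Figure D1:**
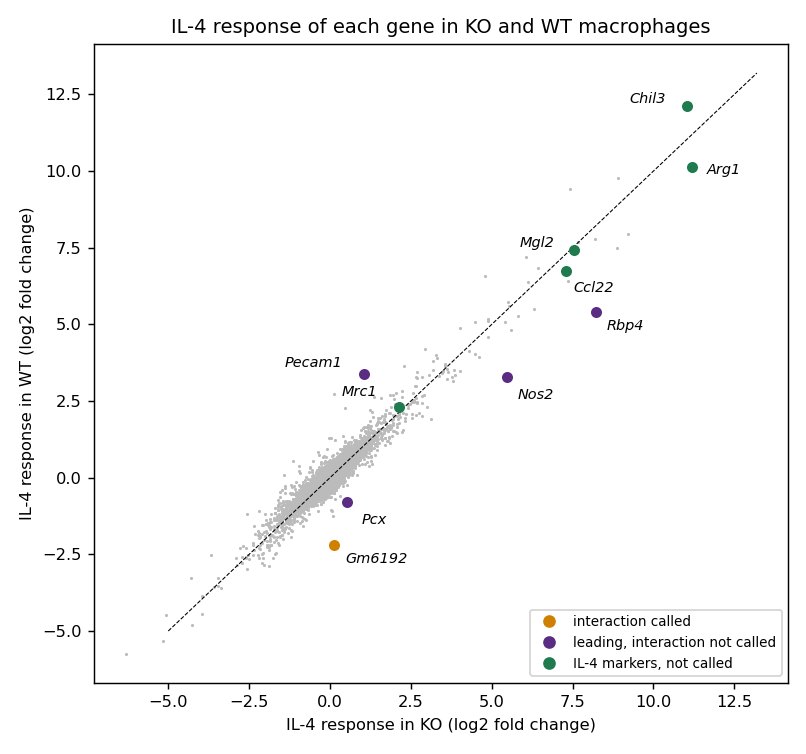
Response to IL-4 of each gene whose 4 group means averaged at least 100 normalized counts, as the log2 fold change in KO (x axis) and in WT (y axis), from log2(normalized count + 1). Each grey dot is a gene and the dashed line marks equal responses; most genes lie along it (r = 0.949), Gm6192, Nos2, Rbp4 and Pcx lie below it and Pecam1 above it.

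Gm6192 (ENSMUSG00000118220.1) is a processed pseudogene at chr19:7959743-7961107 (GRCm38, minus strand), which lies inside Slc22a27 and overlaps 0 of its exons. Processed pseudogenes are copies of a spliced transcript that were inserted into the genome. The closest coding transcript of Gm6192 was that of Eef1a1, a translation elongation factor that brings tRNA to the ribosome, with 1299 identical bases over 1383 aligned columns (93.9%). The first 120 aligned bases without a gap are printed to show how few letters separate the copies. They run 5′ to 3′ with the 7 differing bases in capitals, from position 69 of the Gm6192 transcript and position 190 of the Eef1a1 transcript, both from GENCODE models on GRCm38.
Gm6192: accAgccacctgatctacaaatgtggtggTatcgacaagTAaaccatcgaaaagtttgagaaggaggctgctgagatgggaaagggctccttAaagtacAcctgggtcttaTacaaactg
Eef1a1: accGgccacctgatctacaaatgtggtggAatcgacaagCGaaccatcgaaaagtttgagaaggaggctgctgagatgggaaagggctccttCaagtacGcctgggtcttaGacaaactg
Over the whole alignment the longest run without a difference was 116 bases.

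Gm6192 fell with IL-4 in WT, its response in KO did not pass, and the difference between them did. It had 378, 353 and 337 normalized counts in KO with IL-4 and 317, 372 and 293 in untreated KO. WT cells had 69.9, 82 and 80 with IL-4 and 366, 363 and 332 untreated. The 3 WT libraries with IL-4 lay apart from the other 9, which overlapped. The response was 0.13 in KO (limma adjusted p = 0.609) and -2.18 in WT, and the interaction was 2.31 ± 0.229 (log2, SE, n = 3, 95% interval 1.82 to 2.79, limma adjusted p = 0.000176). With interferon-gamma, which is outside the comparison, the gene stood at 44.0, 52.0 and 51.3 in KO and at 79.6, 49.6 and 54.2 in WT. Eef1a1 itself had 111453 to 123385 normalized counts in KO with IL-4, 118221 to 127389 in untreated KO, 122705 to 135980 in WT with IL-4 and 130751 to 134766 in untreated WT, with an interaction of -0.04 ± 0.124. The sources used here do not say how reads that match both places were counted, so the level of the pseudogene is uncertain, and a part of misplaced Eef1a1 reads in the result was not tested.

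**Figure D2:**
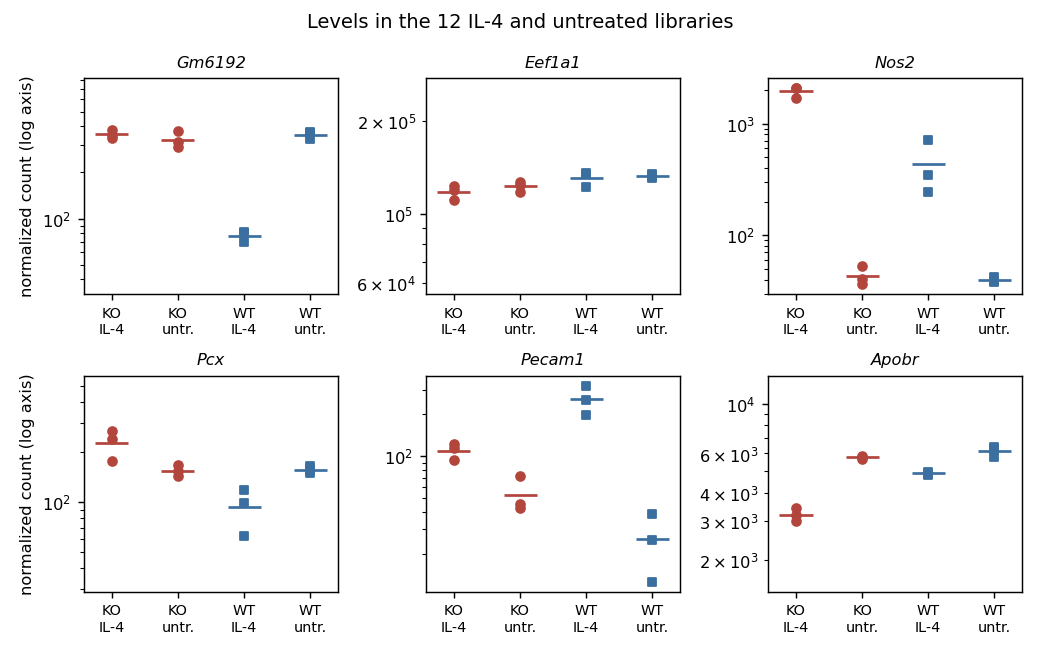
Normalized counts (log axis) of 6 genes in the 12 libraries, KO circles in red and WT squares in blue, with IL-4 left of untreated in each genotype; the line is the mean of 3 animals. Gm6192 is lowest in the 3 WT libraries with IL-4 (69.9 to 82), Nos2 with IL-4 is higher in the 3 KO libraries (1699 to 2072) than in the 3 WT libraries (243 to 719), and Pecam1 with IL-4 is lower in KO.

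Nos2, the inducible nitric oxide synthase that makes nitric oxide from arginine, led the coding genes with a larger rise in KO, but did not pass. It lies at chr11:78920787-78960254 (GRCm38, plus strand). It had 1699, 2072 and 2072 normalized counts in KO with IL-4 and 53.4, 36.4 and 40.8 in untreated KO. WT cells had 719, 243 and 348 with IL-4 and 41.9, 38.8 and 38.2 untreated. The KO libraries with IL-4 lay above the WT ones without overlap, and WT animal 1 stood above the other WT animals. Nos2 rose in both genotypes, by 5.46 in KO and by 3.28 in WT, and with IL-4 KO was above WT by 2.30 (adjusted p = 2.8e-05, limma), against 0.12 untreated (adjusted p = 0.94, limma). The interaction was 2.19 ± 0.353 (95% interval 1.44 to 2.93, limma adjusted p = 0.0668). With the animal as a block, since each animal gave an untreated and an IL-4 culture, it passed (limma adjusted p = 0.0103), as it did in DESeq2 (adjusted p = 0.000231) and in the limma fit without WT animal 1 with IL-4 (2.62, adjusted p = 8.18e-06). It was called in 8 of the 29 alternatives and in none of the others, edgeR included.

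Nos2 shares its substrate with arginase. Arg1, arginase 1, had 3792 to 6152 normalized counts in KO with IL-4 and 4200 to 7319 in WT with IL-4, which overlap. Untreated cells held 5 Arg1 reads over the 3 KO libraries and 14 over the 3 WT libraries, so the IL-4 to untreated ratio was 3685 in KO (exact 95% interval 1579 to 11350) and 1551 in WT (924 to 2838), intervals that cover counting error only. Of the 17 genes of arginine and polyamine metabolism tested, 0 had a called interaction in limma and 2 passed at an unadjusted p under 0.05, Nos2 and the arginine transporter Slc7a2; Nos2 alone was called in DESeq2 and with the animal block. Slc7a2 rose by 7.37 in KO and by 6.41 in WT (interaction 0.96, 95% interval 0.01 to 1.91). The median interaction of the list was 0.03, against 0.00041 over all genes, of which 5.42% had an unadjusted p under 0.05.

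Pyruvate carboxylase, Pcx, which feeds pyruvate into the citric acid cycle as oxaloacetate, was the next coding gene in that direction above the level limit and did not pass either. It had 242, 178 and 267 normalized counts in KO with IL-4 and 167, 144 and 154 in untreated KO. WT cells had 99.4, 62.3 and 119 with IL-4 and 156, 151 and 165 untreated. With IL-4 every KO library was above every WT library, whereas the untreated libraries overlapped. The response was 0.54 in KO (limma adjusted p = 0.053) and -0.79 in WT (limma adjusted p = 0.0064), and the interaction was 1.33 ± 0.287 (95% interval 0.73 to 1.93, limma adjusted p = 0.296). It passed with the animal block (limma adjusted p = 0.048) and in DESeq2 (adjusted p = 0.0076). Pcx overlaps Lrfn4 on the opposite strand, and no source used here states the strand setting of the counting; Lrfn4 had an interaction of 0.06 (95% interval -0.50 to 0.62).

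Promoter windows were sought for the named genes of smallest adjusted p in each direction, and the first RefSeq window of Pcx is shown. It is chr19:4510222-4510521 of GRCm38.p6, plus strand, with 250 bases before and 50 after the start.
Pcx promoter: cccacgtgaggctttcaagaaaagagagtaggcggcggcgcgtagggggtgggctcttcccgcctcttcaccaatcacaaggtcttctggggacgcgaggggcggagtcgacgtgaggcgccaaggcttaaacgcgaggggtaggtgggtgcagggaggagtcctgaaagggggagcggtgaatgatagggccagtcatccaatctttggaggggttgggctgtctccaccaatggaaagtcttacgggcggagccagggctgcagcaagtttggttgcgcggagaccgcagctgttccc
On both strands it held 0 matches to the STAT6 motif (TTC and GAA with 4 bases of any kind between them), TGACNNNGC (the core of the antioxidant response element that NRF2 binds) and TGANTCA (AP-1), which 6.95%, 12.4% and 7.81% of all 32851 promoter windows held. The second Pcx window, chr19:4594069-4594368, also held 0 matches to each motif. Of the 4 genes chosen for this, Nos2, Pcx, Apobr and Pecam1, 2 had a window in the table.

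Among the 21 genes that handle lactate and pyruvate, 0 interactions were called in limma. At an unadjusted p under 0.05, which 5.42% of all genes passed, 3 did: Pcx, Slc16a3 and Pdk2. Pcx was the one called in DESeq2 and with the animal block. Slc16a3, the lactate exporter MCT4, had 2311, 2499 and 2718 normalized counts in KO with IL-4 and 2634, 2566 and 3385 in untreated KO. WT cells had 4017, 2016 and 2651 with IL-4 and 2062, 1600 and 1533 untreated. Its response was -0.18 in KO, which did not pass, and 0.70 in WT, which did, with an interaction of -0.88 ± 0.267 (limma adjusted p = 0.609); untreated KO cells were already above untreated WT cells in all 3 animals. Pdk2, a kinase that inhibits pyruvate dehydrogenase, had a response of -0.54 in KO and 0.04 in WT (interaction -0.58 ± 0.157, limma adjusted p = 0.524). Ldhb, the other main lactate dehydrogenase subunit, had 143 to 193 normalized counts in KO with IL-4, 130 to 165 in untreated KO, 197 to 275 in WT with IL-4 and 167 to 222 in untreated WT (interaction -0.09, 95% interval -0.62 to 0.43).

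The other genes leading in the higher direction were Smim10l1, Ankrd24 and Rbp4, and none passed. Smim10l1 had 1285, 1160 and 1175 normalized counts in KO with IL-4, 1222, 1241 and 1288 in untreated KO, 1099, 1134 and 1073 in WT with IL-4 and 1457, 1490 and 1544 in untreated WT (interaction 0.39 ± 0.0964, limma adjusted p = 0.489). Ankrd24, an ankyrin repeat gene, had 336, 307 and 314 in KO with IL-4, 154, 108 and 127 in untreated KO, 209, 226 and 209 in WT with IL-4 and 170, 159 and 145 in untreated WT (interaction 0.86 ± 0.214, limma adjusted p = 0.489). Rbp4, the plasma carrier of retinol, had 516, 292 and 468 in KO with IL-4 and 76.5, 23.0 and 40.0 in WT with IL-4, so that every KO library was above every WT library. Untreated cells held 2 Rbp4 reads over the 3 KO libraries and 0 over the 3 WT libraries, so the size of its interaction depends on the pseudocount; it was called at a pseudocount of 5 (limma adjusted p = 0.0186) and not at 1 (adjusted p = 0.524).

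In the lower direction the leading gene was Apobr, a macrophage receptor for apolipoprotein B48, which fell with IL-4 in both genotypes. It had 3009, 3419 and 3182 normalized counts in KO with IL-4 and 5650, 5802 and 5862 in untreated KO. WT cells had 4865, 4826 and 4967 with IL-4 and 6398, 6260 and 5793 untreated. Apobr fell by 0.85 in KO and by 0.33 in WT, and the libraries with IL-4 did not overlap between genotypes while the untreated ones did. The interaction was -0.52 ± 0.0929 (95% interval -0.72 to -0.32, limma adjusted p = 0.13), and DESeq2 called it (adjusted p = 0.000231). Apobr overlaps Cln3 and Il27 on the opposite strand.

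The RefSeq window of Apobr, at chr7:126584758-126585057 of GRCm38.p6 (plus strand), held 1 match to TGANTCA, 196 bases before the start, printed in capitals, and 0 matches to the other motifs.
Apobr promoter: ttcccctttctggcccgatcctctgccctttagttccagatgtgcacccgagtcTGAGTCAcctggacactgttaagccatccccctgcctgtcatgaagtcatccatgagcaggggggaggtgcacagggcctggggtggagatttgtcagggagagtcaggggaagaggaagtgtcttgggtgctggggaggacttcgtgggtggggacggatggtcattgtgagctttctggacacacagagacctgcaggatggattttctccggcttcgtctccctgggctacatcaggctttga

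Pecam1, the adhesion molecule CD31 of endothelium and leukocytes, rose in both genotypes and less in KO by its values. It lies at chr11:106654217-106750628 (GRCm38, minus strand). It had 93.7, 114 and 122 normalized counts in KO with IL-4 and 45.3, 71.9 and 42.5 in untreated KO. WT cells had 319, 197 and 251 with IL-4 and 39.0, 12.6 and 25 untreated. With IL-4 every KO library was below every WT library, and untreated every KO library was above every WT library. The response was 1.06 in KO and 3.38 in WT, and the interaction was -2.32 ± 0.42 (95% interval -3.20 to -1.43, limma adjusted p = 0.13). It passed with the animal block (limma adjusted p = 0.00934), in DESeq2 (adjusted p = 1.55e-06) and without untreated WT animal 1 (limma adjusted p = 0.0137).

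The remaining leading genes in this direction, Tm6sf1, Rassf2 and Il18rap, did not pass in limma without the block, and DESeq2 called all 3 (adjusted p = 0.00232 for Tm6sf1, 0.0076 for Rassf2 and 0.00497 for Il18rap). Tm6sf1, a transmembrane protein, had 806, 805 and 895 normalized counts in KO with IL-4, 1997, 2242 and 2124 in untreated KO, 1389, 1416 and 1717 in WT with IL-4 and 2600, 2537 and 2488 in untreated WT; it fell by 1.34 in KO and by 0.76 in WT (interaction -0.58 ± 0.112, limma adjusted p = 0.165). Rassf2, a Ras-association domain protein, had 2231, 2705 and 2528 in KO with IL-4, 4376, 5243 and 4864 in untreated KO, 3223, 3236 and 3489 in WT with IL-4 and 4401, 4305 and 4454 in untreated WT. Rassf2 fell by 0.96 in KO and by 0.40 in WT (interaction -0.55 ± 0.114, limma adjusted p = 0.288, and 0.0424 with the animal block). Il18rap, the accessory chain of the IL-18 receptor, had 158, 145 and 148 in KO with IL-4, 167, 190 and 229 in untreated KO, 154, 243 and 191 in WT with IL-4 and 114, 104 and 107 in untreated WT. It rose in WT, by 0.83, and its response in KO, -0.36, did not pass (interaction -1.19 ± 0.249, limma adjusted p = 0.288). In all 3 genes the changes of the KO animals lay below those of the WT animals, an arrangement that 1941 genes (13.6%) showed in one direction or the other.

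**Figure D3:**
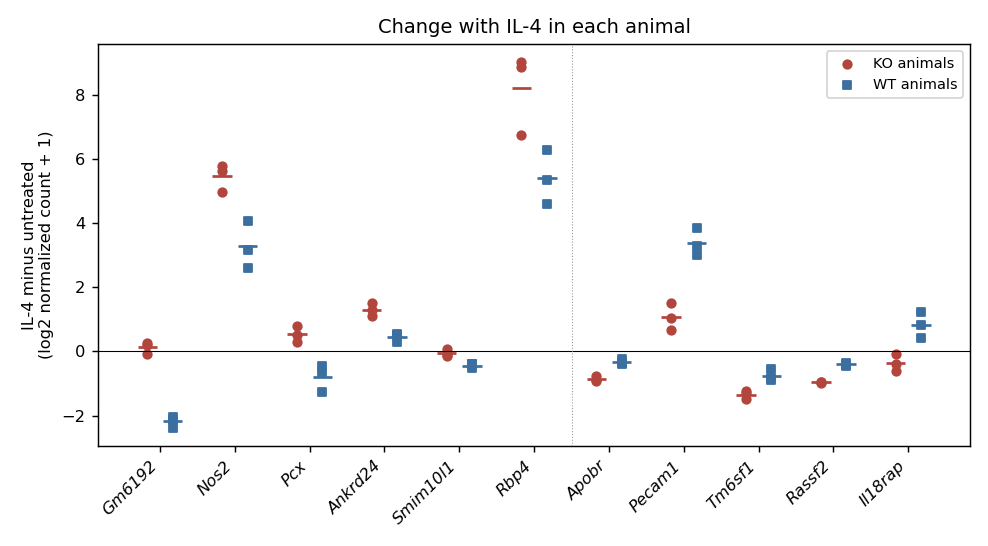
Change with IL-4 in each animal (IL-4 minus untreated, log2 of normalized count + 1) for Gm6192 and the leading genes of each direction, KO animals as red circles left of WT animals as blue squares, with the mean of 3 animals as a line. Changes do not overlap between genotypes in any of these genes, which were chosen for their small p of this same difference; the smallest spread is that of Rassf2 in KO (-0.97 to -0.94) and the widest differences are those of Gm6192, Nos2, Rbp4 and Pecam1.

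The animal block, which compares each IL-4 culture with the untreated culture of the same animal, called 12 genes (0.084%), 4 higher (0.028%) and 8 lower (0.056%). Besides Gm6192, Nos2, Pcx, Pecam1 and Rassf2 these were Thbs1, Dab2, Edil3, Cytip, Tlr5 and Cyth1, lower, and Lox, higher. The matrix protein thrombospondin 1, Thbs1, showed how far animals of one genotype lay apart: it had 2451, 4734 and 10151 normalized counts in KO with IL-4 and 2552, 4264 and 8287 in untreated KO. WT cells had 44179, 6072 and 9573 with IL-4 and 5743, 1226 and 1224 untreated, and WT animal 1 was the highest of its genotype in both conditions. Within an animal the change was -0.06 to 0.29 in KO and 2.31 to 2.97 in WT, and the interaction of -2.61 had an adjusted p of 0.000344 in limma with the block and of 0.819 without it.

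Dab2, an endocytic adaptor, fell by 0.91 in KO and had a response of -0.27 in WT, which did not pass (interaction -0.64, limma adjusted p with the block 0.0142). Lox, lysyl oxidase, which cross-links collagen, had 353, 407 and 228 normalized counts in KO with IL-4, 301, 402 and 229 in untreated KO, 81.9, 128 and 173 in WT with IL-4 and 205, 359 and 347 in untreated WT (interaction 1.35, limma adjusted p with the block 0.0376). It fell in WT, by 1.27, and its change within the KO animals was 0.00 to 0.23. Edil3, a secreted integrin ligand, had changes of -0.25 to 0.23 in the KO animals and 1.07 to 1.56 in the WT animals (limma adjusted p with the block 0.0266). Tlr5, the flagellin receptor, had 0, 4.18 and 20 normalized counts in KO with IL-4, 19.9, 26 and 53.1 in untreated KO, 102, 29.5 and 24.4 in WT with IL-4 and 22.4, 13.5 and 11.9 in untreated WT, so its value rests on few reads.

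Of these genes, Thbs1 and Lox belong to matrix biology and Lox is also made by stromal cells. The summed level of 15 stromal markers, of which 13 were in the table and 3 of those had a mean under 10 normalized counts, was 679 to 1990 in KO with IL-4, 611 to 2068 in untreated KO, 327 to 1124 in WT with IL-4 and 260 to 687 in untreated WT. It changed with IL-4 by -0.15 to 0.15 in the KO animals and by -0.32 to 1.62 in the WT animals, and none of the 11 stromal markers tested had a called interaction. The part of stromal cells in these results was not tested. Among the 23 genes of matrix and matrix proteases tested, 0 had a called interaction in limma without the block, and Thbs1 was called with it. At an unadjusted p under 0.05, 5 of the 23 passed without the block, where 5.42% of all genes did. IL-4 raised 7 of the 23 in KO and 7 in WT, where it raised 15.8% and 16.3% of all genes. Adam8, a metalloprotease, rose by 0.41 in KO and by 0.95 in WT (interaction -0.54 ± 0.114, adjusted p = 0.288 in limma and 0.00079 in DESeq2).

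DESeq2 on the recovered reads called 21 genes (0.147%), 5 higher (0.035%) and 16 lower (0.112%), of which 5 were also called with the animal block, 23.8% of the DESeq2 list and 41.7% of the block list. edgeR called 1 gene (0.007%), Gm6192. The 5 higher genes in DESeq2 included, beside Gm6192, the processed pseudogene Gm9843, identical over its 402 bases to the transcript of Fau, a ribosomal protein gene. Gm9843 had 158, 147 and 127 normalized counts in KO with IL-4, 139, 132 and 147 in untreated KO, 68.8, 111 and 78.8 in WT with IL-4 and 165, 178 and 186 in untreated WT, so that, like Gm6192, it was low in the WT libraries with IL-4. Fau had an interaction of -0.23 (95% interval -0.68 to 0.22).

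The 16 lower genes in DESeq2 included Cd207 and Jag2, which separated the genotypes before treatment. Cd207, langerin, had 37.3, 28.2 and 31.0 normalized counts in KO with IL-4, 268, 224 and 266 in untreated KO, 38.2, 32.8 and 26.3 in WT with IL-4 and 64.3, 77.6 and 67.2 in untreated WT. Jag2, a Notch ligand, had 19.1, 28.2 and 31.6 in KO with IL-4, 210, 217 and 305 in untreated KO, 42.6, 23.0 and 32.5 in WT with IL-4 and 99.4, 69.5 and 74.4 in untreated WT. With IL-4 the genotypes overlapped in both genes, and untreated every KO library was above every WT library. Jaml, an adhesion molecule of leukocytes, had 10.1, 26.1 and 21.2 in KO with IL-4, 14.5, 9.53 and 15.5 in untreated KO, 93.9, 49.2 and 41.3 in WT with IL-4 and 4.87, 4.51 and 5.27 in untreated WT, and thus rose in WT (3.32), while its response in KO (0.44) did not pass.

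Genes of the IL-4 receptor pathway rose and fell in equal numbers in the genotypes. Of 19 genes tested, 8 rose and 3 fell in KO and 8 rose and 3 fell in WT, 0 had a called interaction in limma and 0 passed even at an unadjusted p under 0.05; the median interaction was -0.08. DESeq2 called 0 of them. Il4ra, the receptor chain that binds IL-4, had 1732, 1806 and 1896 normalized counts in KO with IL-4, 1574, 1888 and 1738 in untreated KO, 2481, 1987 and 2034 in WT with IL-4 and 1857, 1843 and 1837 in untreated WT (interaction -0.16, 95% interval -0.43 to 0.11). Stat6 stood at 7479 to 7821 in KO with IL-4, 8254 to 8625 in untreated KO, 7295 to 7793 in WT with IL-4 and 7830 to 8216 in untreated WT, and its interval, -0.21 to 0.12, was among the narrow ones. Socs1, the feedback inhibitor of JAK kinases, rose by 4.87 in KO and by 5.18 in WT (interaction -0.31, 95% interval -0.90 to 0.27), and Socs2, of the same family, by 4.01 in KO and by 4.87 in WT (-0.86, -1.97 to 0.25).

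Among 16 transcription factors linked to IL-4, 10 rose and 3 fell in each genotype. None had a called interaction in limma, 3 passed at an unadjusted p under 0.05, which 5.42% of all genes passed, and the median was -0.10. Irf4, which drives the alternative program, had 993, 1071 and 986 normalized counts in KO with IL-4 and 48.0, 65.8 and 72.7 in untreated KO. WT cells had 577, 725 and 815 with IL-4 and 64.3, 63.1 and 57.3 untreated. The KO libraries with IL-4 were thus above the WT ones, but that gap of 0.54 was not called (adjusted p = 0.16, limma). The interaction of Irf4 was 0.55 ± 0.314 (95% interval -0.12 to 1.21, limma adjusted p = 0.955). Egr2 rose by 2.63 in KO and by 2.77 in WT. Batf3, a factor known from dendritic cells, rose by 2.83 in KO and by 2.01 in WT (interaction 0.83 ± 0.264, limma adjusted p = 0.626), and it dominates the dendritic cell marker sum, which changed by 2.30 to 3.03 in the KO animals and by 1.58 to 2.18 in the WT animals. Zbtb46, another marker of that list, stood at 57.4 to 69.8 in KO with IL-4, 7.24 to 8.66 in untreated KO, 16.3 to 36.1 in WT with IL-4 and 0.902 to 3.95 in untreated WT; 3 of the 6 listed markers in the table had a mean under 10, and the part of dendritic cells in these results was not tested. Ppargc1b, a coactivator of mitochondrial genes, rose by 1.69 in KO and by 1.05 in WT (interaction 0.64 ± 0.208, limma adjusted p = 0.648).

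The alternative activation markers themselves rose strongly in both genotypes: of 24 tested, 18 rose and 1 fell in KO, and 20 rose and 1 fell in WT, with 0 called interactions in limma, 0 in DESeq2 and 5 at an unadjusted p under 0.05. Their median response was 2.62 in KO and 2.67 in WT, and the median interaction was -0.10. Of all genes tested, 15.8% rose in KO and 16.3% in WT, and 5.42% had an interaction at an unadjusted p under 0.05. Mrc1, the mannose receptor, had 24836, 31307 and 32834 normalized counts in KO with IL-4 and 6710, 7811 and 5776 in untreated KO. WT cells had 62567, 57764 and 58654 with IL-4 and 10316, 12331 and 14060 untreated. KO was therefore below WT in both conditions without overlap, and its rise, 2.13 in KO and 2.30 in WT, gave an interaction of -0.16 (95% interval -0.91 to 0.58). The galactose lectin Clec10a rose by 2.56 in KO and by 2.54 in WT, and the related Mgl2 rose by 7.54 in KO and by 7.42 in WT.

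Several markers were nearly silent without IL-4, so that a difference in fold cannot be read from them. Retnla, the secreted protein RELM alpha, had 512, 540 and 387 normalized counts in KO with IL-4 and 342, 1675 and 1185 in WT with IL-4, against 0 in all 6 untreated libraries; the rise was at least 537-fold in KO and at least 1174-fold in WT, from a floor of 3 reads over each untreated group. Chil3 had 6242, 2316 and 6313 in KO with IL-4 and 7005, 4587 and 5232 in WT with IL-4, from 6 reads over the untreated KO libraries and 1 over the untreated WT libraries. Tgm2, a transglutaminase, had 2987, 4523 and 4642 in KO with IL-4 and 2750, 2938 and 3406 in untreated KO. WT cells had 4925, 2748 and 3156 with IL-4 and 1906, 1126 and 1196 untreated. Tgm2 rose in WT, by 1.35, and its response of 0.40 in KO did not pass, but the interaction was not called either (-0.96 ± 0.301, 95% interval -1.59 to -0.32, limma adjusted p = 0.619); untreated KO was above untreated WT by 1.14 (adjusted p = 0.0074, limma).

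**Figure D4:**
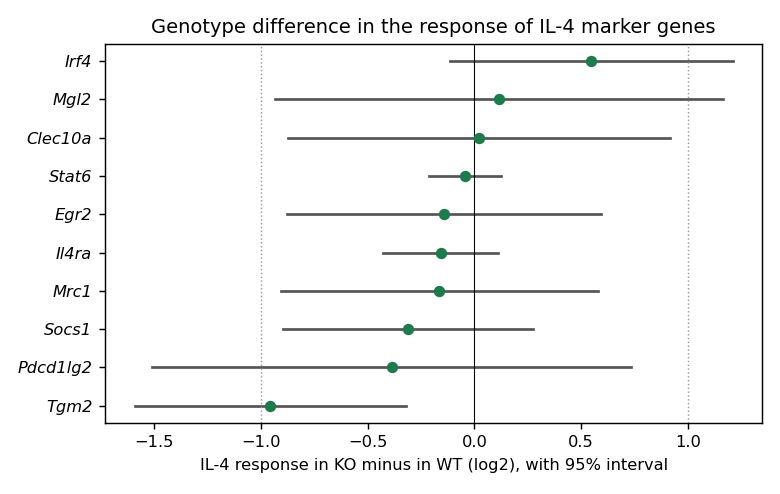
Interaction (response to IL-4 in KO minus that in WT, log2) of 10 genes of the IL-4 marker panel, with the 95% interval from limma. Dotted lines mark 1 log2 unit. The panel genes with the fewest untreated reads in a genotype are left out. Untreated means of Mgl2 (10.9 normalized counts in KO and 18.3 in WT) and Pdcd1lg2 (9.56 and 12.7) were low too. The intervals of 9 genes include 0, that of Tgm2 runs from -1.59 to -0.32, and no gene passed after adjustment over all genes.

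Of 8 chemokines linked to IL-4, 1 was called higher in KO than in WT with IL-4, Ccl22, where 3.46% of all genes were. Of the 8, 7 rose in KO and 7 in WT, 0 interactions were called in limma or DESeq2, 0 passed at an unadjusted p under 0.05 and the median interaction was 0.50. Ccl22, a ligand of CCR4, had 2054, 2312 and 1512 normalized counts in KO with IL-4 and 7.24, 16.5 and 11.4 in untreated KO. WT cells had 486, 374 and 661 with IL-4 and 4.87, 4.51 and 1.98 untreated. KO was above WT in both conditions, by 1.96 with IL-4 (adjusted p = 0.00077, limma) and by 1.41 untreated (adjusted p = 0.019, limma), which leaves an interaction of 0.56 (95% interval -0.34 to 1.46). Ccl17, the other CCR4 ligand, had 118, 77.3 and 40.1 in KO with IL-4 and 15.3, 29.5 and 29.4 in WT with IL-4, from 2 reads over the untreated KO libraries and 0 over the untreated WT libraries.

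Inflammatory chemokines and cytokines had mixed responses. Of 27 tested, 7 rose and 10 fell in KO, and 7 rose and 7 fell in WT; 20 of the 27 interactions were below 0, the median was -0.23, and 6 passed at an unadjusted p under 0.05. Over all genes 7152 of 14288 interactions were above 0, and 5.42% passed at that level. None of the 27 was called in limma without the animal block, which called Nos2 (limma adjusted p = 0.0103), and DESeq2 called Nos2 and Il15. Il15, a cytokine that supports lymphocytes, had 276, 356 and 295 normalized counts in KO with IL-4, 513, 560 and 561 in untreated KO, 543, 482 and 434 in WT with IL-4 and 596, 573 and 562 in untreated WT (interaction -0.57 ± 0.132, adjusted p = 0.427 in limma and 0.0385 in DESeq2). Il1b, interleukin 1 beta, showed the spread between animals: it had 181, 307 and 427 in KO with IL-4, 386, 916 and 744 in untreated KO, 1992, 302 and 561 in WT with IL-4 and 805, 395 and 332 in untreated WT (interaction -1.71, 95% interval -3.45 to 0.03).

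Phagocytic, Fc and scavenger receptors moved in both directions. Of 32 tested, 8 rose and 12 fell in KO, and 9 rose and 9 fell in WT. Over all genes 15.8% rose and 14.5% fell in KO, and 16.3% rose and 14% fell in WT. Of the 32 interactions, 24 were below 0, the median was -0.11, 8 passed at an unadjusted p under 0.05 and 0 were called in limma. Over all genes 7152 of 14288 interactions were above 0, and 5.42% passed at that level. Fcgr4, the receptor for IgG2 subclasses, was called in DESeq2 (adjusted p = 0.0101). It had 409, 500 and 510 normalized counts in KO with IL-4, 880, 940 and 1098 in untreated KO, 1275, 948 and 935 in WT with IL-4 and 1290, 1064 and 1094 in untreated WT, so that KO with IL-4 lay below all other libraries. Cd14, the lipopolysaccharide co-receptor, fell by 2.18 in KO and by 1.09 in WT (interaction -1.09 ± 0.426, limma adjusted p = 0.8). It had 7650, 9630 and 10980 normalized counts in KO with IL-4 and 40220, 43000 and 43660 in untreated KO. WT cells had 29490, 11350 and 13430 with IL-4 and 35320, 34250 and 35670 untreated. WT animal 1 thus fell far less than the other WT animals, and the size of the Cd14 interaction leans on that library. Fcgr1, the high-affinity receptor for IgG, fell by 0.96 in KO with a response of -0.22 in WT that did not pass (interaction -0.74 ± 0.225, limma adjusted p = 0.611). Cd14, Fcgr1, Itgam and Mertk are also among the 15 macrophage markers, of which 14 had an interaction below 0 (median -0.25).

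Immediate early genes, which follow acute signalling, had a median interaction of -0.28, with 21 of 27 below 0. At an unadjusted p under 0.05, 6 passed, where 5.42% of all genes did, and 0 were called in limma. Nr4a1, an orphan nuclear receptor, was called in DESeq2 (adjusted p = 0.0187): it had 93.7, 113 and 99.5 normalized counts in KO with IL-4, 184, 236 and 179 in untreated KO, 165, 203 and 216 in WT with IL-4 and 181, 157 and 160 in untreated WT. It fell in KO, by 0.95, and its response of 0.22 in WT did not pass. Fos fell in KO, by 0.62, with a response of 0.33 in WT that did not pass (interaction -0.95 ± 0.257, limma adjusted p = 0.524). Of 26 type I interferon-stimulated genes, 11 rose in KO and 15 in WT, 22 interactions were below 0 with a median of -0.20, and 0 passed at an unadjusted p under 0.05. Over all genes 15.8% rose in KO and 16.3% in WT, and 7152 of 14288 interactions were above 0.

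Several lists of lipid and mitochondrial genes had no called interaction in limma or DESeq2. All 23 genes of cholesterol synthesis and uptake rose in both genotypes, with a median of 0.94 in KO and 0.90 in WT, and their interactions ran from -0.22 to 0.14 with 0 passing at an unadjusted p under 0.05. Of 15 genes of fatty acid synthesis and desaturation, 13 rose in KO and 12 in WT, and Elovl5, a fatty acid elongase, had the smallest p there (interaction -0.20, limma adjusted p = 0.919). Of 38 nuclear-encoded respiratory chain genes, 33 rose in KO and 25 in WT, with a median of 0.44 in KO and 0.37 in WT and 27 interactions above 0; Cycs, cytochrome c, rose by 0.63 in KO with a response of 0.26 in WT that did not pass (interaction 0.37 ± 0.163, limma adjusted p = 0.864). Of 31 genes of the citric acid cycle and NADH shuttles, 18 rose in KO and 20 in WT, with 0 interactions at an unadjusted p under 0.05. Fatty acid oxidation had 12 of 22 genes rising in each genotype. Of all genes tested, 15.8% rose in KO and 16.3% in WT, and 7152 of 14288 interactions were above 0.

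Glycolysis without Ldha had 10 of 19 genes rising and 1 falling in each genotype, with medians of 0.30 in KO and 0.51 in WT. Of its 19 interactions 15 were below 0, with a median of -0.18, where 7152 of 14288 were above 0 over all genes. Of the 19, 2 passed at an unadjusted p under 0.05 (5.42% over all genes) and 0 were called in limma or DESeq2. Aldoc, an aldolase, led them with 1907, 1316 and 1356 normalized counts in KO with IL-4, 2112, 1706 and 2181 in untreated KO, 2573, 1607 and 2099 in WT with IL-4 and 2073, 1678 and 1506 in untreated WT (interaction -0.64, 95% interval -1.21 to -0.08, limma adjusted p = 0.823), and the 4 groups overlap. The 8 genes of the pentose phosphate pathway had a median interaction of 0.03, and the 20 targets of hypoxia-inducible factor outside glycolysis one of -0.19.

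Genes of NRF2 and antioxidant defence differed between the genotypes whether or not IL-4 was given. Of 24 tested, 15 were higher in KO with IL-4 (3.46% of all genes were) and 15 untreated (1.46%), and the median gap was 0.76 with IL-4 and 0.68 untreated, which left a median interaction of 0.05 with 0 called in limma or DESeq2. Gclc, the rate-limiting enzyme of glutathione synthesis, led with 1774, 1783 and 2053 normalized counts in KO with IL-4 and 1459, 1376 and 1431 in untreated KO. WT cells had 872, 859 and 926 with IL-4 and 876, 885 and 987 untreated. Gclc rose in KO, by 0.39, its response of -0.05 in WT did not pass, and the interaction was 0.44 ± 0.12 (95% interval 0.19 to 0.69, limma adjusted p = 0.524). In the ATF4 and amino acid stress list 22 of 30 genes rose in KO and 20 in WT, with a median interaction of 0.11; Slc6a9, a glycine transporter, rose by 1.25 in KO and by 2.20 in WT. Heat shock and ER folding genes had 19 of 23 rising in KO and 16 in WT, and the chaperonin Hspd1 rose by 0.56 in KO with a response of 0.19 in WT that did not pass (interaction 0.38 ± 0.142, limma adjusted p = 0.8).

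Slc40a1, the iron exporter ferroportin, fell with IL-4 in both genotypes. It had 1129, 1090 and 1190 normalized counts in KO with IL-4 and 3057, 4216 and 3862 in untreated KO. WT cells had 684, 518 and 475 with IL-4 and 2925, 3009 and 3449 untreated. It fell by 1.69 in KO and by 2.5 in WT, the KO libraries with IL-4 lay above the WT ones, and the interaction was 0.80 ± 0.223 (95% interval 0.33 to 1.27, limma adjusted p = 0.541). Atp6v0d2, a proton pump subunit needed for fusion of macrophages and osteoclasts, rose by 3.01 in KO and by 2.31 in WT, and reached 23954 to 26957 in KO with IL-4 and 25374 to 28151 in WT with IL-4, which overlap, with 2633 to 3888 in untreated KO below 4692 to 6018 in untreated WT (interaction 0.70 ± 0.239, limma adjusted p = 0.714). Of the 12 genes of MHC class II presentation, 9 rose in KO and 10 in WT, and the median interaction was 0.00.

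Most genes of mitosis and DNA replication fell with IL-4 in both genotypes. In the mitosis list 26 of 27 genes fell in KO and 26 in WT, with medians of -1.59 in KO and -1.67 in WT, and among 28 genes of DNA replication 20 fell in KO and 21 in WT, with medians of -0.56 in KO and -0.67 in WT. Both lists had 0 called interactions in limma and DESeq2. Of all genes tested, 14.5% fell in KO and 14% in WT. Aurkb, a mitotic kinase, fell by 1.14 in KO and by 0.53 in WT (interaction -0.61 ± 0.275, limma adjusted p = 0.883). Among 15 D cyclins, CDK inhibitors and Myc genes, 6 fell and 3 rose in KO, and 4 fell and 2 rose in WT, with 0 called interactions in limma or DESeq2. Ccnd3, cyclin D3, which had the smallest p of that list, had 455, 463 and 437 normalized counts in KO with IL-4, 1121, 1110 and 1264 in untreated KO, 691, 580 and 663 in WT with IL-4 and 1222, 1014 and 1025 in untreated WT; it fell by 1.36 in KO and by 0.75 in WT (interaction -0.61 ± 0.146, limma adjusted p = 0.445).

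**Figure D5:**
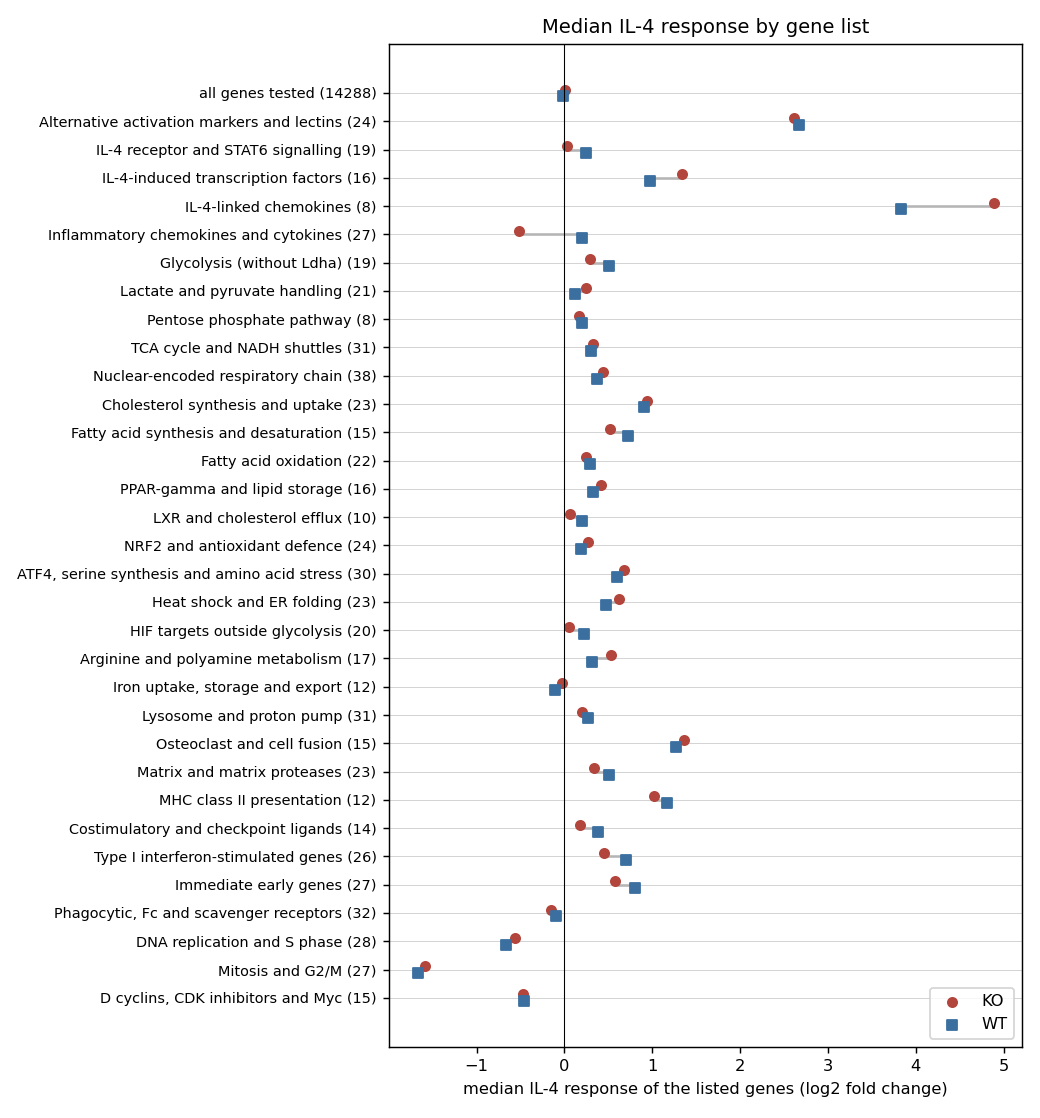
Median response to IL-4 (log2 fold change) of the tested genes of each list, KO as red circles above WT as blue squares, with the number of genes tested in brackets and all 14288 genes in the top row. The medians of the genotypes lie close together in most lists. The widest gap is that of the IL-4-linked chemokines (4.89 in KO and 3.83 in WT), followed by inflammatory chemokines and cytokines (-0.52 in KO and 0.20 in WT). In the IL-4-linked list Ccl17, Ccl24 and, in WT, Ccl22 had few untreated reads, so the sizes of their responses depend on the pseudocount.

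Several further lists had no called interaction in limma. Of 31 lysosome and proton pump genes, 16 rose in KO and 16 rose in WT, and 0 interactions passed at an unadjusted p under 0.05. The same held for 16 genes of PPAR-gamma and lipid storage (7 rose in KO and 7 in WT) and for 10 genes of LXR and cholesterol efflux (4 rose in KO and 3 in WT). Among 14 costimulatory and checkpoint ligands 5 rose in KO and 6 in WT, and 2 interactions passed at that level. Cd86, a ligand of CD28, was one of them, with 432, 957 and 1303 normalized counts in KO with IL-4, 605, 726 and 874 in untreated KO, 2354, 790 and 1009 in WT with IL-4 and 539, 482 and 553 in untreated WT (interaction -1.07 ± 0.484, limma adjusted p = 0.883). Of 15 osteoclast and fusion genes 10 rose in KO and 10 in WT, with 3 interactions at an unadjusted p under 0.05, which 5.42% of all genes passed.

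Few markers of further cell types were in the table. The summed level of the neutrophil list, with 4 of its 10 genes in the table, was 9.11 to 15.1 normalized counts in KO with IL-4, 13 to 26.9 in untreated KO, 5 to 19.7 in WT with IL-4 and 6.31 to 9.74 in untreated WT. The B and T cell list, with 4 of 9 genes in the table and led by Cd4, summed to 55.4 to 99.2 in KO with IL-4, 129.5 to 215.7 in untreated KO, 123.4 to 145 in WT with IL-4 and 197.8 to 351 in untreated WT. The mast cell, basophil and eosinophil list, with 6 of 9 genes in the table and led by Siglecf, changed with IL-4 by 0.84 to 1.31 in the KO animals and by 0.01 to 0.77 in the WT animals. The part of these cell types in the results was not tested. The monocyte list is led by Chil3, which IL-4 itself induces.

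The genotype difference seen with IL-4 alone is a separate quantity from the interaction. KO and WT differed in 941 genes with IL-4 (6.59%), of which 494 were higher in KO (3.46%) and 447 lower (3.13%). Untreated, they differed in 283 (1.98%), of which 208 were higher in KO (1.46%) and 75 lower (0.525%). The test of the change in the gap called 1 gene, so the larger count with IL-4 is not shown to be a genotype difference in the response. Nos2, Pcx and Fcgr4 are among the genes with a gap called with IL-4 and not untreated.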

How the data were processed

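RNA-seq libraries were made after poly(A) selection with a directional kit, per the labels' protocols. The submitters' processing notes name STAR 2.5, HTSeq 0.6, the GRCm38 build, DESeq2 and edgeR, without their roles. The deposited signal is a normalized count per gene, by the deposited table's own title; how it was scaled is read from its values. In every library the values were multiples of one step, so that 100% of them came out as whole reads (tolerance 0.1), and the count tests ran on those reads. Each of the 4 groups is 3 separate animals by the labels' codes. No replicate pair matched within sampling noise (chi-square per gene 11.1 to 62.1, where about 1 is sampling noise).

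Genes with at least 10 normalized counts in at least 3 of 18 libraries were kept. Log2(normalized count + 1) went into limma 3.58.1 under R 4.3.3 (6 group means, 12 residual degrees of freedom, trend, two-sided), with Benjamini-Hochberg adjustment over all genes and a call at 0.05. edgeR 4.0.16 and DESeq2 1.42.0 on recovered reads, other pseudocounts, filters and scalings, an animal block and leaving out libraries were alternatives. Fold changes on this scale understate those of low genes. The labels give the same animal code to its untreated and IL-4 cultures; their deviations from the group means correlated at 0.137 to 0.204 in the KO animals and 0.00363 to 0.236 in the WT animals, so the pairing rests on the labels.

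Genes named are the called gene, the 5 genes of smallest p in each direction with a mean of at least 100 normalized counts in a group, the leading gene of each list and an IL-4 marker panel. Other list members, and genes called with the block or by DESeq2 alone, were named after their values were seen. The members and lists were chosen with earlier results of these data known. Gm6192 was outside the naming rule for unnamed gene models and is described because it was the 1 gene called. Intervals of ratios and floors cover counting error only. The authors' own comparison columns and group means were not used.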

Additional observations from a re-analysis of the deposited data

Results flagged for a closer look

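Gm6192, the processed pseudogene closest to Eef1a1, is set apart because the test of the difference between the genotypes' IL-4 responses passed for it: the interaction was 2.31 (log2, limma adjusted p = 0.000176), with a response of 0.13 in KO and -2.18 in WT. It was called in 29 of 29 alternatives, with values between 2.21 and 2.41. All 3 WT animals moved down and the 3 KO animals moved by -0.07 to 0.25. The share of reads misplaced between Gm6192 and Eef1a1 was not tested.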

How the results depend on the processing

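The interaction was called for 3 genes (3 higher) at a pseudocount of 5, for 2 (2 higher) with no filter on low values, for 2 (2 higher) with quantile normalization, for 21 (5 higher and 16 lower) in DESeq2 and for 12 (4 higher and 8 lower) with the animal as a block, the pairing the labels give; the cause of these differences was not tested. Without one library or animal, it was called for 1 to 3 genes, 1 to 2 higher and 0 to 1 lower, reaching 2 without WT animal 1 with IL-4 or untreated, and 3 without WT animal 2 with IL-4 or without both libraries of WT animal 1. The IL-4 response then covered 2747 to 4787 genes in KO and 2857 to 4762 in WT, lowest without both libraries of KO animal 2 (KO animal 1 gave 2826) and of WT animal 3, which leaves 2 animals in a group. The block called no other gene than those named with it. With 3 animals per group, the median SE of 0.20 limits what can be seen.

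Some interactions that did not pass changed sign, and the cause was not tested. At a pseudocount of 5 that of Mgl2 was -0.0147 and that of Cdh1 0.19. Clec10a was at -0.0617 in edgeR and -0.0681 in DESeq2, and Ccl17 at -0.89 in edgeR and -0.23 in DESeq2. Leaving out libraries gave -0.24 to 0.0654 for Ldhb, -0.0286 to 0.19 for Lyz2, -0.29 to 0.47 for Mgl2, -0.42 to 0.26 for Clec10a, -0.80 to 0.35 for Cdh1, -0.37 to 0.0107 for Egr2 and -0.82 to 0.27 for Pdcd1lg2.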

Other observations

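A few genes called by DESeq2 or with the animal block, and not by limma without it, belong to none of the lists. Pilra, an inhibitory receptor of myeloid cells, had 36.3, 49.1 and 26.1 normalized counts in KO with IL-4 and 675, 847 and 678 in untreated KO. WT cells had 77.6, 59 and 75 with IL-4 and 751, 674 and 643 untreated. It fell by 4.30 in KO and by 3.28 in WT, and every KO library with IL-4 was below every WT library with IL-4 (DESeq2 adjusted p = 0.0101).

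Cytip, a cytohesin-binding adaptor of leukocytes, had 1812, 2774 and 2487 in KO with IL-4 and 1947, 2614 and 2606 in untreated KO. WT cells had 3596, 2374 and 2469 with IL-4 and 1186, 1146 and 1083 untreated, so the genotypes overlapped with IL-4 and did not overlap untreated (limma adjusted p with the block 0.0424). Slc37a2, a sugar phosphate transporter, had 8673 to 8945 in KO with IL-4, 11144 to 11961 in untreated KO, 11672 to 12122 in WT with IL-4 and 11612 to 12890 in untreated WT; it fell in KO, by 0.39, and its response of -0.05 in WT did not pass (DESeq2 adjusted p = 0.0429). Rasgrp4, a Ras activator, fell by 0.88 in KO, and its response of -0.26 in WT did not pass (DESeq2 adjusted p = 0.0331).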
